A study of Homo sapiens with 8 samples.

Results

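HSF1 was knocked down in PC9-BrM3, a brain metastatic subline of the human lung adenocarcinoma cell line PC9, and total RNA was taken for RNA-seq. The experiment consisted of the libraries whose titles name PC9-BrM3 with shHSF1 clone 7480 or with shNTC, which were 4 of the 8 RNA-seq libraries of the series. In each group PC9-BrM3 cells carried a lentiviral Tet-pLKO plasmid whose hairpin is switched on by doxycycline. The plasmid was Tet-pLKO-shNTC, a non-target hairpin, in 2 libraries and Tet-pLKO-shHSF1 (clone 7480) in the other 2. For all 4 libraries the cells had been selected with puromycin for 5 days and then held in doxycycline at 500 ng/mL for 48 h. The remaining libraries, 2 of untransduced PC9 parental cells and 2 of untransduced PC9-BrM3 cells cultured for 48 h, served only as a side comparison. A single hairpin was used, so loss of HSF1 and any other effect of that hairpin cannot be told apart. Whether the 2 libraries of a group came from separate cultures is not given in the labels, so a p-value reflects only the spread seen among these libraries, possibly technical.

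HSF1 is the main transcription factor of the heat shock response. Under protein-folding stress it forms trimers, binds heat shock elements in promoters and raises transcription of chaperones such as HSP90, HSP70, HSP40 (the DNAJ proteins) and the small heat shock proteins. In tumour cells HSF1 is also active without heat and is known to support a wider set of genes for growth and metabolism. HSP90 in turn keeps HSF1 inactive in resting cells and holds many kinases and steroid receptors in a usable shape.

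Promoter windows are shown for the heat shock genes that changed with shHSF1 and hold a full heat shock element, so that the letters HSF1 is known to recognise can be seen beside the expression values. The element was searched as 3 units with NN between neighbours, either GAA, TTC and GAA or TTC, GAA and TTC. These forms are each other's reverse complement and so cover both strands. Capitals mark the matches. Sequences are RefSeq promoters on GRCh38.p14, written 5′ to 3′ on the gene's strand, and each window was cut at up to 45 bases either side of the element. SERPINH1 encodes the collagen chaperone HSP47, CHORDC1 an HSP90 co-chaperone, and DNAJA1 and DNAJB6 are HSP40 proteins. The first 3 were lower with shHSF1, and DNAJB6, shown after its value was seen, was higher.
SERPINH1: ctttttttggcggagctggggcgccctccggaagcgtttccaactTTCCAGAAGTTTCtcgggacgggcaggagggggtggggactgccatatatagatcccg
CHORDC1: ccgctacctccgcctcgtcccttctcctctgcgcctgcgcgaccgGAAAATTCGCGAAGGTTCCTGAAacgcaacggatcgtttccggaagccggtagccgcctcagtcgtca
DNAJA1: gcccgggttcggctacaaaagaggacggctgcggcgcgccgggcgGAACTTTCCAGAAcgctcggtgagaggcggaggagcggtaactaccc
DNAJB6: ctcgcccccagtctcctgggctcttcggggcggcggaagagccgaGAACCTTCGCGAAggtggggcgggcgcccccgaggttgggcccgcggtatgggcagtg

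The SERPINH1 window lies at chr11:75562132-75562234 on the plus strand, with the element from -76 to -64 relative to the start site. The CHORDC1 window lies at chr11:90223042-90223154 on the minus strand and holds 3 overlapping matches from -60 to -38. In DNAJA1 (chr9:33025231-33025322, plus strand) the element lies just after the start, from 4 to 16, and in DNAJB6 (chr7:157336828-157336930, plus strand) it lies from -131 to -119. Over all 27305 RefSeq promoters of the same 300 bases, 133 (0.487%) held the 3-unit element. Among tested genes with a promoter in the table it was found in 0.304% of those lower with shHSF1, 0.395% of those higher and 0.261% of those not called. In the heat shock class (the 7 heat shock and chaperone lists described below) it was found in 5 of 103 promoters (4.85%). By call, these were 3 of 43 promoters of lower genes (6.98%), 1 of 15 of higher genes (6.67%) and 1 of 45 of genes not called (2.22%). The shorter 2-unit form (GAA, NN and TTC, or TTC, NN and GAA), which is also contained in every 3-unit match, was found in 13.7% of all promoters and in 23.3% of those of the class. A match describes the letters in the window and not binding by HSF1.

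Gene-assigned counts were 47450446 and 36281879 in the shNTC libraries and 36695501 and 33550140 in the shHSF1 libraries, within the series range of 33550140 to 56715336. Levels are given in CPM, that is, counts divided by a normalised library size. With 3 counts as the limit that a count of 0 allows, a gene unseen in a library could still stand at 0.0632 to 0.0894 CPM, from counting error alone. The mitochondrial genome took 1.85% and 3.81% of counts with shNTC and 2.26% and 1.40% with shHSF1. Replicate 2 of untransduced PC9-BrM3 stood apart, with 17.3% mitochondrial counts against 1.40% to 6.23% in the other 7 libraries, and its pair differed most (chi-square per degree of freedom 334.9, against 12 to 27.7 in the other groups). That library enters only the subline comparison and the fit of all 8 libraries. Epithelial identity was checked with 7 genes, whose summed level ran from 5568.6 to 5906.6 CPM with shNTC and from 7134.2 to 7463.4 CPM with shHSF1. Of 7 fibroblast, 6 leukocyte, 4 endothelial and 6 glial and neuronal markers, 4, 1, 1 and 3 had 0 counts in all 4 libraries, among them COL1A2, DCN, CD3E, KDR, SNAP25 and RBFOX3. The summed level of each set was lower with shHSF1, but not every member fell. Among those that did not, VWF went from 0.321 and 0.42 CPM to 0.647 and 0.91 CPM. SYT1 went from 0.171 and 0.168 CPM to 0.566 and 0.264 CPM. The summed fibroblast level, almost all FBLN1, was 355.4 and 355.5 CPM with shNTC and 311.6 and 320.9 CPM with shHSF1, and the glial and neuronal sum, mostly MBP, was 133.1 and 127.6 against 108.1 and 100.9 CPM. The endothelial sum, mostly CDH5, was 46.3 and 39.1 against 26.3 and 20.5 CPM, and the leukocyte sum 2.44 and 2.27 against 1.21 and 1.06 CPM. CDH5 (log2 fold change -0.91) and MBP (-0.32) were called lower in every alternative run, while FBLN1 (-0.17, adjusted p = 0.0286) lost its call without any 1 of the 4 libraries (adjusted p = 0.0601 to 0.161). Their part in the results was not tested. PC9-BrM3 is a cell line, and the fibroblast, endothelial, and glial and neuronal sums each rested mostly on a single gene. Such a sum does not by itself mark cells of that type. In bulk RNA, fewer cells of a type and less RNA per cell cannot be told apart.

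The targeted gene was reduced in each shHSF1 library. HSF1 (ENSG00000185122, chromosome 8) stood at 184.7 and 188.8 CPM with shNTC and at 16.3 and 14.1 CPM with shHSF1. The groups were far apart and the replicates of each lay close together. The log2 fold change was -3.61 ± 0.08 (SE), a 12.2-fold lower level, with adjusted p = 2.66e-08 in edgeR's quasi-likelihood test with Benjamini-Hochberg adjustment over all genes. Scaled together with the untransduced libraries, HSF1 stood at 178.4 and 183.8 CPM with shNTC, 15.6 and 13.5 CPM with shHSF1, 54.6 and 52.7 CPM in untransduced PC9-BrM3 and 47.0 and 50 CPM in PC9 parental. The shHSF1 libraries were thus below every other library, and the shNTC libraries were above the untransduced ones. Transduced libraries ran on lane 1 and untransduced ones on lane 7, per the file headers, so hairpin induction, drug treatment and lane cannot be told apart in that last difference. The related factor HSF2 was at 34.4 and 34.3 CPM against 28.9 and 30.3 CPM (log2 fold change -0.22, adjusted p = 0.0468), a call that was lost without any 1 of the 4 libraries (adjusted p = 0.0772 to 0.189). HSBP1, which binds HSF1 trimers, fell (log2 fold change -0.30, adjusted p = 0.00829), and without shNTC replicate 1 or shHSF1 replicate 1 its adjusted p was 0.0561 and 0.071.

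A large part of the transcriptome differed between the groups, but most differences were small. Of 16840 tested genes, 7701 (45.7%) passed the threshold of adjusted p under 0.05, which is what called means here, with 3739 higher (22.2%) and 3962 lower (23.5%) with shHSF1. Against a null of a 1.5-fold change (edgeR's glmTreat) 1836 genes (10.9%) passed, 823 of them higher (4.89%) and 1013 lower (6.02%). Of the called genes 22.7% differed at least 2-fold and 354 at least 4-fold, 210 of these higher and 144 lower. Replicates lay closer together than groups. Among the 11408 genes at 5 CPM or more in at least 1 group, the median absolute log2 difference was 0.0842 between the shNTC libraries and 0.0862 between the shHSF1 libraries, against 0.277 between group means. The 2 values of each group did not overlap in 12351 genes (73.3%), so separation of the groups by itself marks no gene out. When all 8 libraries were fitted together, the calls fell to 3873 genes, and to 1060 past 1.5-fold, and most counts per list given below fell as well. For list counts from the 4 transduced libraries, the background is the 22.2% higher and 23.5% lower over all tested genes.

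**Figure D1:**
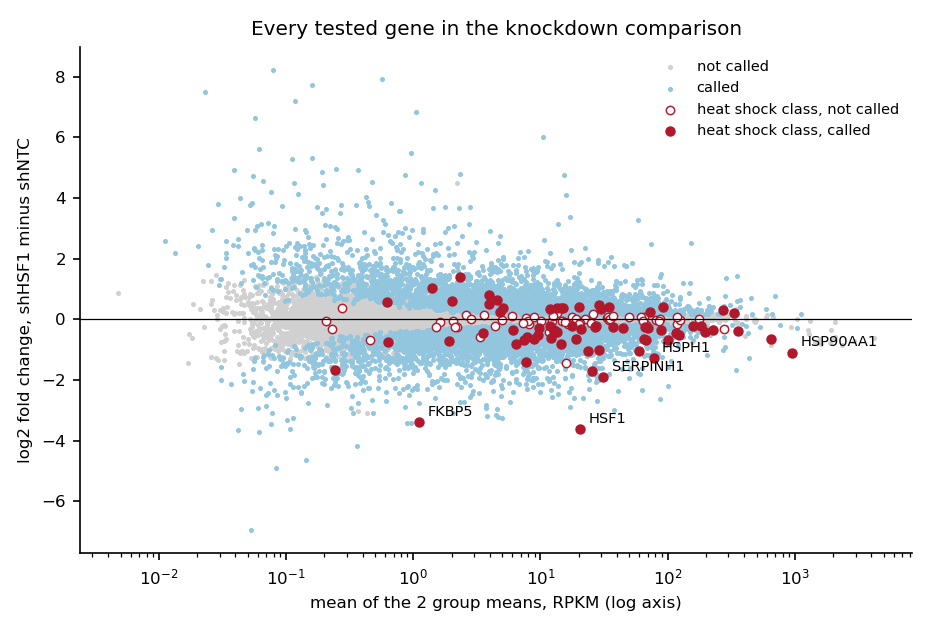
Log2 fold change (shHSF1 minus shNTC) of each tested gene against its mean level in RPKM on a log axis, with called genes in blue and the 124 tested heat shock class genes in red, filled where called. HSF1 and FKBP5 lie lowest among the labelled genes at -3.61 and -3.39, HSP90AA1 is the most abundant of the class, and class genes lie on both sides of 0.

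The chaperone system shifted downward in part rather than as a whole. Of 124 tested genes in 7 lists (heat shock factors, HSP90, HSP70, DNAJ, small heat shock proteins, chaperonins and other heat-induced genes), 48 fell (38.7%, against 23.5% of all genes), 21 rose (16.9%, against 22.2%) and 55 were not called. The median log2 fold change was -0.15, beside 0.01 over all tested genes. With 1 library left out in turn, 36 to 46 of these genes were lower, the fewest without shHSF1 replicate 1, when 18.3% of all genes were lower. With all 8 libraries in the fit 25 were lower and 6 higher (19.7% and 4.72%, against 12.3% and 9.04% of all genes). Called members described in the text that lost their call in that fit were HSF2, HSBP1, HSP90B1, CHORDC1, HSPA5, HYOU1, BAG3, DNAJA1, DNAJB6, HSPE1, PFDN2, UBB, IER5 and HMOX1, with adjusted p from 0.0663 (DNAJA1) to 0.348 (HSP90B1).

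The cytosolic HSP90 system was reduced. HSP90AA1, the inducible cytosolic HSP90, stood at 6883.9 and 6802.6 CPM with shNTC and 3013.9 and 3354.7 CPM with shHSF1. The groups did not overlap, and the level was lowered 2.15-fold (log2 fold change -1.10 ± 0.07, adjusted p = 1.24e-06). Per length, it went from 1304.0 ± 11.0 to 606.8 ± 45.9 RPKM (mean ± SD, n = 2 each). That was the largest loss of RPKM (CPM per kilobase of exon) among called genes outside the mitochondrial genome. HSP90AB1, the constitutive cytosolic form, went from 2198.5 and 2211.7 CPM to 1385.5 and 1452.0 CPM, again with no overlap (log2 fold change -0.64 ± 0.06, adjusted p = 1.79e-05). The forms of other compartments did not follow: HSP90B1 of the endoplasmic reticulum rose slightly (0.22, adjusted p = 0.0155) and TRAP1 of mitochondria was at 0.01 (adjusted p = 0.895). The HSP90B1 call was lost without shNTC replicate 1, shNTC replicate 2 or shHSF1 replicate 2 (adjusted p = 0.0604, 0.0863 and 0.104).

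Of the 25 tested genes of HSP90 and its co-chaperones, 13 fell and 3 rose (median -0.32), with 1 rise without shNTC replicate 1 or shNTC replicate 2. FKBP5, an immunophilin that binds HSP90 in steroid receptor complexes, fell most, from 21.3 and 22.2 CPM to 1.97 and 2.17 CPM. That is a 10.5-fold lower level (log2 fold change -3.39 ± 0.13, adjusted p = 1.1e-07). Among the co-chaperones that load or activate clients, STIP1 (HOP, the bridge between HSP70 and HSP90) fell from 585.6 and 581.5 CPM to 346.0 and 378.1 CPM (-0.69), AHSA1 (an activator of the HSP90 ATPase) by 0.53 on the log2 scale, NUDCD3 by 0.83, UNC45A by 0.67 and CACYBP by 0.65. Each of these 5 kept its call in every alternative run. CDC37, which brings kinases to HSP90, was at 349.6 and 352.2 CPM against 368.0 and 369.0 CPM (0.07, adjusted p = 0.314), while its relative CDC37L1 rose (0.79, adjusted p = 0.000181). FKBP4, FKBP8, PPP5C, NUDC, RPAP3 and PIH1D1 were not called, with log2 fold changes from -0.19 to 0.02. CHORDC1, shown above with 3 overlapping element matches, was at 100 and 133.8 CPM against 64.8 and 82.5 CPM (-0.66 ± 0.18, adjusted p = 0.0321). Its adjusted p rose to 0.143 without shHSF1 replicate 1 and to 0.071 without shHSF1 replicate 2.

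**Figure D2:**
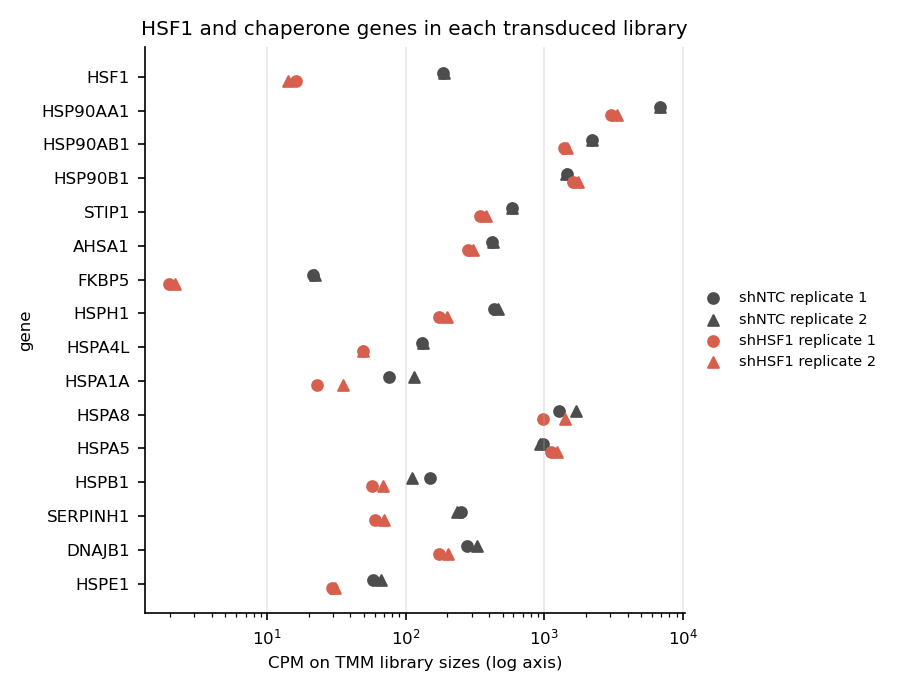
Level of HSF1 and 15 chaperone genes in each of the 4 transduced libraries, in CPM on a log axis, with shNTC in grey, shHSF1 in red, circles for replicate 1 and triangles for replicate 2. HSF1, FKBP5 and SERPINH1 show the widest gaps between groups, HSPA8 overlaps between groups, and HSPA5 and HSP90B1 lie slightly higher with shHSF1.

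HSP70 genes differed by member. HSPH1, the HSP110 that recharges HSP70 with nucleotide, stood at 431.7 and 467.7 CPM with shNTC and 175.4 and 197.5 CPM with shHSF1 (log2 fold change -1.27 ± 0.07, adjusted p = 9.94e-07). Its relative HSPA4L went from 131.1 and 132.5 CPM to 49.2 and 49.0 CPM (-1.42 ± 0.06, adjusted p = 2.24e-07). In neither gene did the groups overlap. HSPA1A, the heat-inducible HSP70, read 75.6 and 115.5 CPM against 22.9 and 35.1 CPM, with replicate 2 the higher in each group. Its fall (-1.72 ± 0.37) had an adjusted p of 0.0451, which became 0.191 and 0.166 without shHSF1 replicate 1 or 2. The near-identical copy HSPA1B read 42.6 and 74.4 CPM against 17.0 and 25.9 CPM and was not called (-1.45 ± 0.44, adjusted p = 0.0966). It was called in DESeq2 (adjusted p = 0.0107), with all 8 libraries in the fit (0.0112), with the mitochondrial genome left out (0.0475), and without shNTC replicate 1 or 2 (0.0049 and 0.0183). Reads can be split between these copies, so each value is uncertain.

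HSPA8, the constitutive HSP70, overlapped between groups, at 1287.9 and 1690.9 CPM with shNTC and 971.7 and 1414.2 CPM with shHSF1 (-0.32 ± 0.27, adjusted p = 0.42). Here too replicate 2 was the higher in each group. The endoplasmic reticulum members moved the other way: HSPA5 (BiP) rose from 973.7 and 925.4 CPM to 1110.7 and 1233.7 CPM (0.30, adjusted p = 0.00452) and HYOU1 rose by 0.24 (adjusted p = 0.00782, and 0.0542 without shHSF1 replicate 2). Mitochondrial HSPA9 was not called (-0.05, adjusted p = 0.478). Over the 26 tested genes of HSP70, HSP110 and their nucleotide exchange factors, 8 fell and 4 rose, with a median of -0.13. Without shHSF1 replicate 1 only 3 were lower, and without shHSF1 replicate 2 only 2 were higher. The exchange factor BAG3, a known heat shock gene, fell by 0.27 on the log2 scale (adjusted p = 0.00639, and 0.0539 without shHSF1 replicate 1).

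DNAJ proteins, which deliver clients to HSP70, were split, with 9 of 38 tested higher, 10 lower and a median of -0.00. DNAJB1, the main heat-inducible HSP40, fell from 278.4 and 328.6 CPM to 174.6 and 202.5 CPM (log2 fold change -0.69 ± 0.09, adjusted p = 0.000357). DNAJA1 (-0.64) and DNAJB9 (-0.82) fell as well. DNAJC6, which uncoats clathrin vesicles, rose (1.04), as did DNAJC16 (0.59) and DNAJB6 (0.35, adjusted p = 0.00147).

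Chaperonins showed modest falls, with 7 of 17 tested lower, 1 higher and a median of -0.15. HSPE1, the mitochondrial HSP10, fell from 58.6 and 66.6 CPM to 29.5 and 30.9 CPM (-1.05 ± 0.08, adjusted p = 7.99e-06), although its adjusted p was 0.244 with all 8 libraries in the fit. Subunits CCT3 (-0.44) and CCT6A (-0.40) of the cytosolic TRiC complex fell, and the prefoldin PFDN2 rose (0.42). Of 10 listed small heat shock proteins 2 were expressed enough to test, and they moved apart. HSPB1 (HSP27) fell from 149.1 and 111.1 CPM to 56.8 and 68.8 CPM (-1.05 ± 0.16, adjusted p = 0.00364), with no overlap, while HSPB8 rose from 10.3 and 10.1 CPM to 17.9 and 13.9 CPM (0.64, adjusted p = 0.00306). On the scale of all 8 libraries HSPB1 stood at 13.6 to 37.4 CPM in the untransduced cells, 143.9 and 108.2 CPM with shNTC and 54.2 and 65.7 CPM with shHSF1. It was thus higher in every transduced library than in any untransduced one, a gap that holds lane and treatment too.

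Heat-induced genes outside the chaperone families gave 6 lower and 3 higher of 12, and 3 lower without shNTC replicate 2. SERPINH1 fell furthest among the well-expressed ones, from 251.2 and 233.6 CPM to 59.7 and 69.9 CPM (-1.90 ± 0.08, adjusted p = 2.08e-07), a 3.74-fold lower level with no overlap. The polyubiquitin gene UBB fell (-0.42, adjusted p = 0.000288). IER5, known as a feedback regulator of HSF1, rose (0.46, adjusted p = 0.000611). HMOX1, the heme oxygenase, was at 28.7 and 33.6 CPM against 37.1 and 44.0 CPM (0.38, adjusted p = 0.015), and its call was lost without shNTC replicate 1 or shHSF1 replicate 2 (0.116 and 0.102).

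As a share of all gene-assigned counts, the 119 genes of the 5 chaperone lists took 2.94% and 2.96% with shNTC and 2.26% and 2.46% with shHSF1. HSP90AA1 by itself went from 0.679% and 0.670% to 0.305% and 0.341%. HSP90 with its co-chaperones went from 1.42% and 1.41% to 0.915% and 0.996%, and chaperonins from 0.641% and 0.632% to 0.538% and 0.562%. The shares of the HSP70 list (0.566% and 0.603% against 0.511% and 0.583%) and of the DNAJ list (0.299% and 0.305% against 0.286% and 0.309%) overlapped between groups. Exact binomial 95% intervals were narrow at this depth (2.936% to 2.946% in shNTC replicate 1). An exact permutation test over 2 libraries a group cannot reach the threshold, so these shares are given per library with no test. Untransduced PC9-BrM3 stood at 2.78% and 2.87% and PC9 parental at 3.02% and 3.08%, so both shHSF1 libraries were the lowest of the 8.

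**Figure D3:**
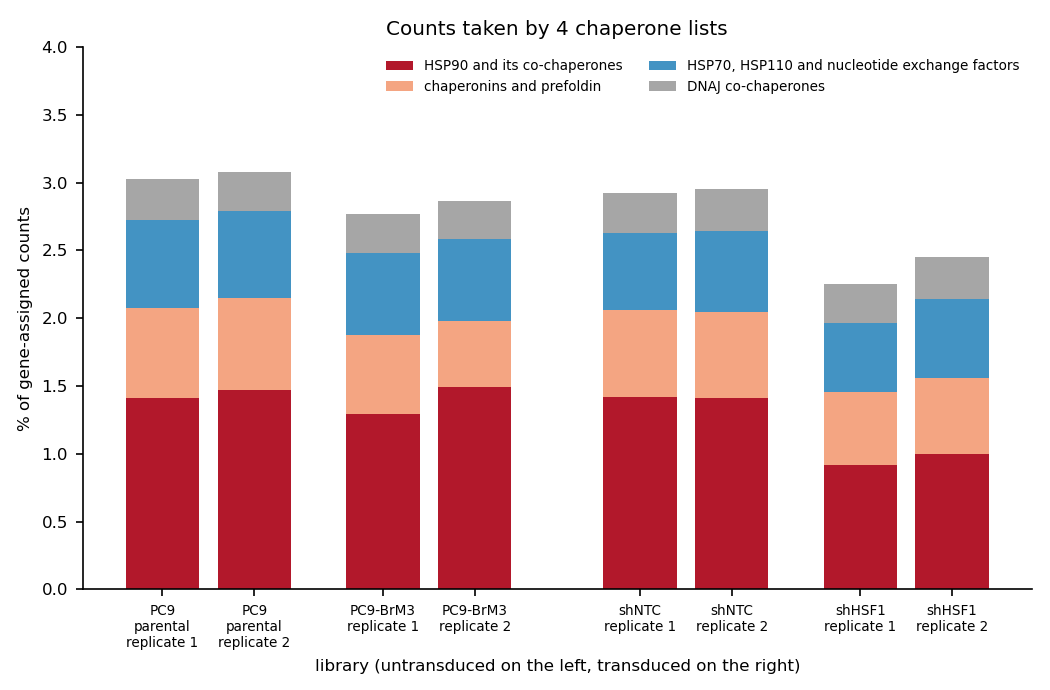
Percent of gene-assigned counts taken by 4 chaperone lists in each of the 8 libraries, as stacked bars from 0. The shHSF1 bars are the shortest, and the HSP90 segment is 0.915% and 0.996% there against 1.42% and 1.41% with shNTC.

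Steroid receptor and glucocorticoid receptor target genes mostly rose, while FKBP5, TSC22D3 and PER1 fell. Of 17 tested, 11 rose and 3 fell (median 0.58). DUSP1, a phosphatase of MAP kinases, rose from 5.90 and 6.26 CPM to 63.3 and 61.9 CPM (3.37 ± 0.09, adjusted p = 2.66e-08). The kinase SGK1 rose from 17.8 and 19.6 CPM to 46.8 and 42.9 CPM (1.26 ± 0.09), and ESR1, the estrogen receptor, from 4.21 and 4.47 CPM to 9.62 and 9.01 CPM (1.1 ± 0.13). TSC22D3 (GILZ) fell instead (-0.59, adjusted p = 0.000495, and 0.215 with all 8 libraries in the fit). PER1 fell less (-0.32, adjusted p = 0.0261). It was not called in DESeq2 (adjusted p = 0.0668) or with all 8 libraries in the fit (adjusted p = 0.451). DUSP1 and SGK1 also respond to many other signals. The labels do not mention a steroid, and the cause of these changes was not tested.

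Kinases known as HSP90 clients were split, with 12 of 31 tested higher and 10 lower (median 0.05). These values are transcript levels and say nothing of client protein. The SRC-family kinase FYN rose from 86.3 and 80.1 CPM to 155.3 and 159.2 CPM (0.92 ± 0.06). SRC itself fell from 38.2 and 37.5 CPM to 21.7 and 21.5 CPM (-0.81 ± 0.08), and so did the checkpoint kinase CHEK1 (-0.80) and IRAK1 of interleukin-1 signalling (-0.80). The receptor kinase ROS1 rose from 0.235 and 0.112 CPM to 7.65 and 3.55 CPM (4.93 ± 0.53, adjusted p = 0.000251).

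Among signalling lists, interleukin-6 family and JAK-STAT genes had 12 of 31 higher and 5 lower (median 0.14). The receptor IL6R rose from 1.24 and 1.26 CPM to 7.90 and 6.72 CPM (2.55 ± 0.18), the ligand IL11 from 8.40 and 7.08 CPM to 36.8 and 27.3 CPM (2.04 ± 0.15), and the feedback inhibitor SOCS2 rose by 1.32. The shared receptor chain IL6ST fell (-0.45), as did JAK1 (-0.49) and SOCS6 (-1.02). IL6, named after its value was seen, was low throughout, at 0.342 and 0.308 CPM against 4.04 and 1.73 CPM (3.14 ± 0.46, adjusted p = 0.000531). Fibroblast growth factor genes had 7 of 13 higher and 3 lower (1 lower without shHSF1 replicate 1), with a median of 0.44. FGF1 rose from 1.15 and 0.895 CPM to 6.98 and 4.78 CPM (2.50 ± 0.24), and the adaptor FRS2 rose by 0.98.

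The Notch pathway was evenly split (9 higher and 9 lower of 25, and 5 higher without shNTC replicate 1). Its falls included the target HEY1 (7.10 and 7.83 CPM against 3.18 and 3.14 CPM, -1.24 ± 0.15), the Notch-modifying enzyme LFNG (-1.11) and DTX4 (-0.80). Among Kruppel-like and SP transcription factors 7 of 19 rose and 4 fell, with KLF8 higher (0.59) and KLF10 (-0.79) and SP1 (-0.43) lower. Adhesion G protein-coupled receptors gave 3 higher and 4 lower of 14, with ADGRL2 higher (0.57) and ADGRF5 lower (-0.62).

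Circadian clock genes fell more often than they rose. Of 21 tested, 12 fell and 4 rose (median -0.26), and 9 to 10 fell when 1 library was left out in turn. The clock runs on the activators CLOCK and BMAL1, the repressors PER and CRY that they switch on, and output factors under their control. Of the repressors, PER3 fell from 48.9 and 43.9 CPM to 12.5 and 13.9 CPM (-1.81 ± 0.10, adjusted p = 6.97e-07) and PER2 from 18.6 and 13.8 CPM to 6.41 and 4.40 CPM (-1.58 ± 0.20, adjusted p = 0.000216). BHLHE41 (DEC2), another repressor, fell from 160.8 and 169.5 CPM to 53.0 and 56.2 CPM (-1.60 ± 0.07). These 3 genes were named by a rule that required groups not to overlap. CRY1 went the other way, from 50.4 and 37.1 CPM to 76.4 and 67.1 CPM (0.71 ± 0.14, adjusted p = 0.00587, and 0.0693 without shHSF1 replicate 1), and BMAL2 (0.70) and RORA (0.66) rose. The output factors TEF (-1.17) and DBP (-0.94) and the repressor NR1D1 (-0.91), named after their values were seen, fell (NR1D1 with adjusted p = 0.109 in the fit of all 8 libraries), while BMAL1 was not called (0.30, adjusted p = 0.0842). The cells of both groups had been in doxycycline for the same 48 h, and the labels give no clock time.

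Of 27 tested nuclear pore genes 18 fell and 2 rose, with a median of -0.24, the highest share of falls among lists with at least 5 tested genes. NDC1, a membrane anchor of the pore, fell from 199.8 and 192.6 CPM to 51.0 and 46.8 CPM (-2.00 ± 0.07, adjusted p = 6.06e-08). NUP35, which sits beside it, fell from 73.9 and 69.5 CPM to 30.4 and 30.3 CPM (-1.24 ± 0.07), and NUP62 of the central channel from 176.7 and 176.6 CPM to 79.3 and 84.7 CPM (-1.11 ± 0.06). These were named by a rule that required groups not to overlap. Most other falls were small. With 1 library left out in turn 12 to 17 genes of the list were lower, and 9 with all 8 libraries in the fit. The rises of NUP43 (0.25) and NUP58 (0.17) lost their call without shHSF1 replicate 2 (adjusted p = 0.0515 and 0.076). Without shNTC replicate 1 the adjusted p of NUP43 was 0.0777, and without shNTC replicate 2 or shHSF1 replicate 1 that of NUP58 was 0.213 and 0.161.

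**Figure D4:**
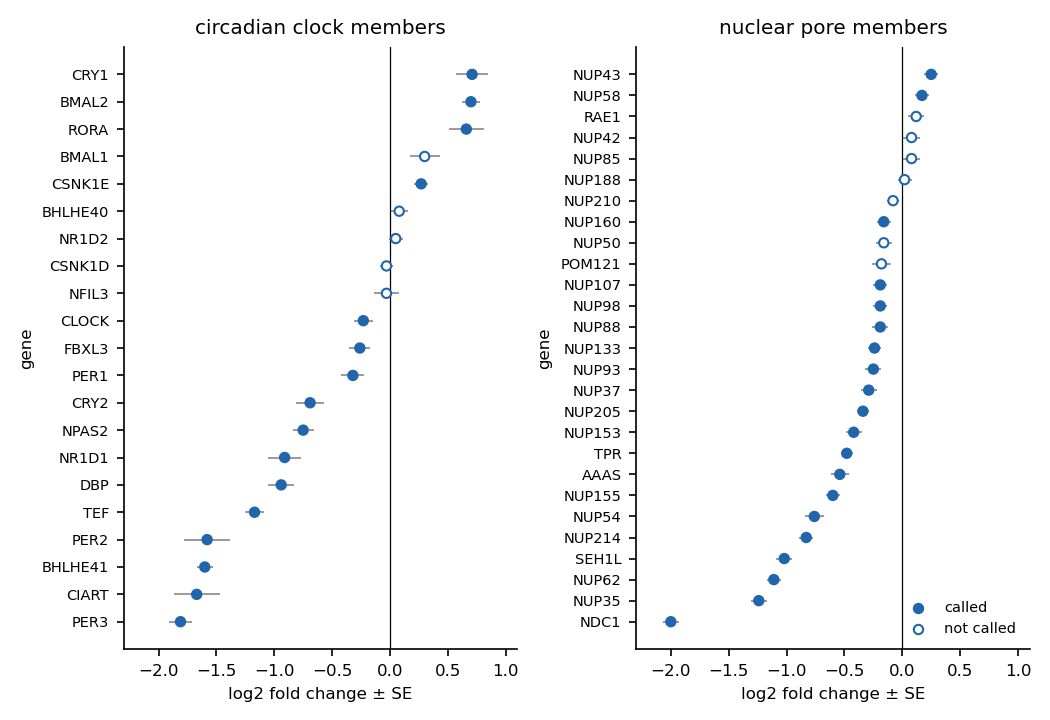
Log2 fold change with its standard error for each tested circadian clock gene (left) and nuclear pore gene (right), filled where called. PER3 at -1.81 and NDC1 at -2.00 lie lowest, and CRY1 at 0.71 and NUP43 at 0.25 highest.

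RNA-handling and translation lists held a few large falls among many small changes. Of 36 tested SR and hnRNP splicing factors 14 fell and 0 rose (median -0.12), and 7 fell without shHSF1 replicate 1. The count of rises was also 0 at an unadjusted p under 0.05 in edgeR and 0 by adjusted p in DESeq2, and it was 1 with upper-quartile factors. HNRNPA3 fell from 480.5 and 444.7 CPM to 222.5 and 223.6 CPM (-1.05 ± 0.06) and HNRNPA0 from 321.9 and 283.6 CPM to 152.8 and 148.8 CPM (-1.01 ± 0.07). Translation factors were even, with 11 of 49 higher (5 without shNTC replicate 2 and 6 without shHSF1 replicate 1) and 13 lower. Yet EIF4G2 (DAP5), which starts translation without a cap, fell from 841.6 and 792.8 CPM to 258.9 and 273.2 CPM (-1.62 ± 0.06, adjusted p = 1.1e-07). EIF1AX, needed for start codon scanning, fell from 94.0 and 88.5 CPM to 21.2 and 21.2 CPM (-2.11 ± 0.07, adjusted p = 6.47e-08), and EIF2B2 fell by 1.14 on the log2 scale. Mitochondrial ribosome genes stayed near the background, with 11 of 74 higher (6 to 7 without shNTC replicate 1, shNTC replicate 2 or shHSF1 replicate 2) and 17 lower (10 and 9 without shNTC replicate 2 or shHSF1 replicate 1). MRPL57 (-0.74) and MRPL10 (-0.46) fell.

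Growth and division lists leaned lower. Nucleotide synthesis and one-carbon enzymes had 17 of 32 lower and 5 higher (median -0.24), with the adenylosuccinate synthase ADSS2 at 83.9 and 80.2 CPM against 36.2 and 35.4 CPM (-1.20 ± 0.07) and DHODH of pyrimidine synthesis at -1.02. Rises of that list numbered 3 without shNTC replicate 2 or shHSF1 replicate 1. Centrosome and centriole genes had 17 of 34 lower and 3 higher (median -0.17), among them STIL, needed to build a centriole (84.2 and 67.6 CPM against 38.8 and 39.3 CPM, -0.96 ± 0.10), and CEP78 (-0.97). Chromatin regulators had 27 of 74 lower and 14 higher (median -0.15). The DNA methyltransferase DNMT3B rose from 11.2 and 11.2 CPM to 55.0 and 49.8 CPM (2.23 ± 0.09, adjusted p = 1.46e-07) and HDAC9 from 35.5 and 28.3 CPM to 111.2 and 91.5 CPM (1.66 ± 0.13), while the remodeller HELLS (-1.09) and the deacetylase SIRT1 (-0.94) fell.

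Tubulins were split, with 5 of 18 higher and 6 lower: the abundant TUBB (-0.44) and TUBA1B (-0.50) fell and TUBA1A (0.64) and TUBB6 (0.52) rose. The small RNA machinery had 6 of 12 higher and 3 lower. Its rises included the Argonaute genes AGO4 (1.16) and AGO1 (0.52) and their partner TNRC6A (0.96). Its falls were the microRNA processing genes DROSHA (-0.56), DGCR8 (-0.37) and DICER1 (-0.36), while PRKRA, a DICER partner named outside the rule, rose (0.26, adjusted p = 0.0108). DROSHA, DGCR8 and DICER1 were not called with all 8 libraries in the fit (adjusted p = 0.143, 0.0637 and 0.0907). The plasmids express a hairpin in both groups.

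Metabolic and organelle lists differed in direction, and several counts were near the 22.2% higher and 23.5% lower over all tested genes. mTORC1 brakes and nutrient sensors had 8 of 26 higher and 7 lower. AKT1S1 (PRAS40), an mTORC1 inhibitor, fell from 186.3 and 175.9 CPM to 30.3 and 29.3 CPM (-2.60 ± 0.07, adjusted p = 2.66e-08), while SESN2 rose (0.80). Polyamine metabolism had 7 of 18 higher and 1 lower, or 2 lower without shNTC replicate 2 (median 0.21), with ODC1, the entry enzyme, at 153.8 and 144.0 CPM against 253.6 and 293.6 CPM (0.88 ± 0.08). OAZ2, an inhibitor of ODC, fell (-0.82). Lysosome genes had 13 of 40 higher and 7 lower (median 0.10), with the cholesterol exporter NPC1 rising from 56.5 and 54.2 CPM to 118.4 and 117.9 CPM (1.09 ± 0.06).

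Peroxisome biogenesis had 7 of 16 lower and 2 higher (1 without shNTC replicate 1 or shHSF1 replicate 1), with the membrane protein receptor PEX19 at -1.03. COPI and COPII coats had 9 of 33 higher and 7 lower. Leaving out shNTC replicate 1, shNTC replicate 2 or shHSF1 replicate 2 gave 4 to 5 higher, and leaving out shHSF1 replicate 1 gave 4 lower. Within COPII, SEC23A rose (0.78) and its partner SEC24A fell (-1.29). Mucin-type O-glycosylation had 6 of 22 higher and 10 lower, with the initiating enzymes GALNT3 higher (0.90) and GALNT10 and GALNT2 lower (-0.82 each). Metallothioneins and zinc transporters had 3 of 7 higher and 1 lower (0 without shNTC replicate 1 or shHSF1 replicate 2, and 2 without shHSF1 replicate 1), and the rise of SLC39A10 (0.49) kept its call in every alternative run. Of the 7 epithelial genes KRT18 (0.70), KRT8 (0.63) and CDH1 (0.41) rose and MUC1 fell (-1.05). The CDH1 call was lost with all 8 libraries in the fit (adjusted p = 0.054).

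**Figure D5:**
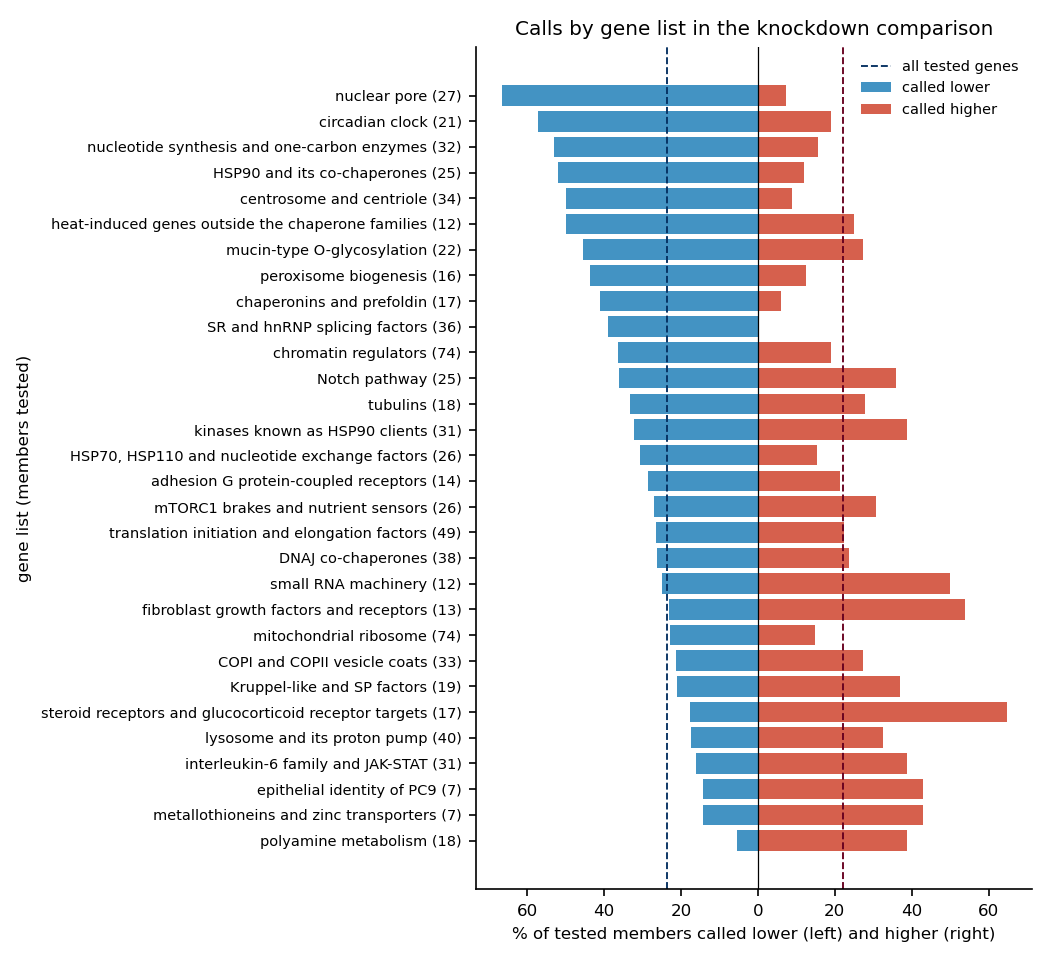
Percent of tested members called lower (blue, left) and higher (red, right) for lists with at least 5 tested genes, with members tested in brackets and dashed lines at the 23.5% lower and 22.2% higher over all tested genes. Nuclear pore genes extend furthest to the left and steroid receptor and glucocorticoid receptor target genes furthest to the right.

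Gene families named by symbol differed in direction, beside the 22.2% higher and 23.5% lower over all tested genes. Solute carriers and RAB GTPases had more rises than falls. Forkhead, USP and TRIM genes had more falls than rises. The share called was 38.0% for ZNF genes, 55.6% for solute carriers, and 52.2% each for RAB and forkhead genes. It was 48.1% for USP and 68.0% for TRIM genes, beside 45.7% of all tested genes. Zinc finger genes with a ZNF symbol had 93 of 490 higher and 93 lower (57 higher without shHSF1 replicate 1). ZNF770 fell from 84.7 and 84.7 CPM to 20.4 and 17.6 CPM (-2.15 ± 0.09). Solute carriers had 83 of 261 higher and 62 lower, with the glucose transporter SLC2A3 higher (32.5 and 24.1 CPM against 92.6 and 81.6 CPM, 1.62 ± 0.14) and the nucleotide sugar transporter family member SLC35A5 lower (40 and 37.8 CPM against 5.28 and 4.76 CPM, -2.95 ± 0.11). RAB GTPases had 21 of 69 higher and 15 lower, led by RAB3B of regulated exocytosis (11.1 and 14.2 CPM against 56.7 and 59.4 CPM, 2.21 ± 0.11) and by RAB29, linked to LRRK2 (23.9 and 26.8 CPM against 3.53 and 3.70 CPM, -2.81 ± 0.12). Forkhead factors had 2 of 23 higher and 10 lower, with FOXJ2 at -1.15. Deubiquitinases with a USP symbol had 8 of 52 higher and 17 lower, and TRIM proteins 14 of 50 higher (9 without shNTC replicate 2 or shHSF1 replicate 1) and 20 lower.

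Of the smaller families, potassium channel subunits had 9 of 30 higher (5 without shHSF1 replicate 1) and 7 lower. SOX factors had 3 of 8 higher and 2 lower (1 without shNTC replicate 2 or shHSF1 replicate 1), and SOX4 rose (0.46). Protocadherins had 3 of 8 higher (1 without shHSF1 replicate 1) and 5 lower (3 without shNTC replicate 1 or shHSF1 replicate 2). Their symbols include clustered genes that share exons, so reads can be uncertain, as for PCDHGC3 (-1.77).

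Among called long non-coding RNA genes, rises outnumbered falls. Those with a LINC symbol had 70 of 259 higher and 36 lower (median 0.29), with 41 higher without shHSF1 replicate 1 and 23 lower without shNTC replicate 2. LINC00707 rose from 0.513 and 0.475 CPM to 15.8 and 11.6 CPM (4.78 ± 0.23, adjusted p = 3.81e-07). By annotated type 158 lincRNA genes were higher and 71 lower of 682, and 122 antisense genes were higher and 64 lower of 775. Of 12741 protein-coding genes 3242 were higher and 3553 lower. The lincRNA share of rises was near the 22.2% over all tested genes and the antisense share below it. Both types had a smaller share of falls than the 23.5% over all tested genes. They were called less often (33.6% and 24.0%, against 53.3% of protein-coding genes) and had lower median levels (0.99 and 1.04 CPM, against 36.2 CPM, in the higher group). Small nucleolar RNA host genes had 5 of 24 higher (1 to 3 without shNTC replicate 1, shNTC replicate 2 or shHSF1 replicate 1) and 3 lower (1 without shNTC replicate 2). Calls grew with level: with genes put in 5 equal classes by mean RPKM, 25.6% of the lowest class and 58.9% of the highest were called.

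In absolute level, the largest gains per length among called genes outside the mitochondrial genome were in the cytoskeleton and in sterol synthesis. Cytoplasmic actin ACTG1 went from 528.6 and 507.3 RPKM to 916.9 and 847.3 RPKM. HMGCS1, which makes the sterol precursor HMG-CoA, went from 214.5 and 161.4 RPKM to 519.1 and 498.0 RPKM. The cell cycle adaptor SFN went from 164.9 and 158.3 RPKM to 404.0 and 432.1 RPKM. Each of these 3 was called with no overlap between groups, as were the keratins KRT18 and KRT8, the non-muscle myosin MYH9, and tissue factor F3 (49.3 and 43.1 against 271.8 and 250.7 RPKM).

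Among called genes outside the mitochondrial genome, the largest losses per length after HSP90AA1 were in CEACAM6 and S100A9. The adhesion protein CEACAM6 went from 591.7 and 634.8 RPKM to 232.3 and 269.0 RPKM. The calcium-binding S100A9 went from 485.0 and 564.1 RPKM to 145.3 and 184.6 RPKM. The reductases AKR1B10 (361.2 and 372.0 against 173.4 and 189.0 RPKM) and NQO1 (368.4 and 371.7 against 186.2 and 207.8 RPKM), both known as NRF2 targets, fell too. The caspase CASP14 of keratinizing cells fell from 144.3 and 153.4 to 22.6 and 25.7 RPKM. In none of these 5 genes did the groups overlap. GAPDH of glycolysis fell (-0.28, adjusted p = 0.00273) but its adjusted p was 0.172 with all 8 libraries in the fit.

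By fold, genes were ranked among those called with at least 50 CPM in 1 group and groups not overlapping. OLR1, a receptor for oxidised lipoprotein, rose most, from 1.13 and 0.783 CPM to 68.3 and 56.9 CPM (6.0 ± 0.16, adjusted p = 2.66e-08). The basal keratin KRT17 rose from 2.93 and 2.52 CPM to 84.5 and 65.0 CPM (4.77 ± 0.15) and the vasoconstrictor peptide EDN1 from 3.42 and 3.69 CPM to 72.2 and 50.2 CPM (4.11 ± 0.20). The matricellular protein CCN1 (60.7 and 50.4 against 334.8 and 284.6 CPM), the activin subunit INHBA (57.0 and 52.7 against 324.7 and 234.7 CPM) and the integrin-binding FERMT2 (13.0 and 10.0 against 72.0 and 62.0 CPM) rose too. CCN1 and ANKRD1 are known targets of YAP. ANKRD1 was at 27.3 and 15.8 CPM against 225.6 and 193.2 CPM (3.27 ± 0.33, adjusted p = 0.00732), but its adjusted p was 0.113 and 0.116 without shHSF1 replicate 1 or 2.

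At the same level limit of 50 CPM in 1 group, the largest falls after HSF1 were GPR180 (58.0 and 61.9 against 6.14 and 7.10 CPM, -3.18 ± 0.10), the heme-binding PGRMC1 (134.0 and 124.0 against 14.2 and 18.6 CPM, -2.98 ± 0.11) and the centrosomal TACC1 (127.3 and 125.8 against 19.8 and 18.3 CPM, -2.73 ± 0.07). The calcium-binding PEF1 (-2.70), CASP14 (-2.62) and AKT1S1 (-2.60), both described above, the kinase STK26 (-2.59), HACD2 of fatty acid elongation (-2.55) and the macrophage growth factor CSF1 (-2.47) followed. The replicates of these genes lay close together, and the ranking took only genes whose groups did not overlap. Below that limit CHRDL1, an antagonist of bone morphogenetic proteins, fell more than HSF1 (-4.65 ± 0.53, adjusted p = 8.37e-05), from 0.984 and 1.31 CPM to 0.027 and 0.0587 CPM, the last 2 values under the limit from a count of 0.

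The knockdown calls were set beside those between PC9-BrM3 and PC9 parental, which share no library with them. In that comparison 1240 of 17372 genes were called (7.14%), with 3.87% higher and 3.27% lower in PC9-BrM3. Of 16201 genes tested in both, 213 were lower with shHSF1 and higher in PC9-BrM3, which is 5.4% of the knockdown's lower genes and 34.4% of the subline's higher genes. The other 3 direction classes held 170 (higher in both), 156 (higher with shHSF1, lower in PC9-BrM3) and 122 genes (lower in both), or 27.5%, 33.3% and 26% of the subline's genes in that direction. For scale, 3544 of the 16201 genes were higher and 3941 lower with shHSF1, and over all genes tested in the knockdown the shares were 22.2% and 23.5%. The overlap was not tested. The subline calls rested on single libraries: without PC9-BrM3 replicate 1 or 2 the first class held 1317 and 798 genes, and without PC9 parental replicate 1 or 2 it held 67 and 90.

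Among genes lower with shHSF1 and higher in the subline, BST2 (tetherin, an interferon-induced membrane protein) stood at 75.3 and 73.2 CPM with shNTC and 25.5 and 22.4 CPM with shHSF1. In the subline comparison its log2 fold change was 4.95 ± 0.33 (adjusted p = 0.00344). IGFBP5, which binds insulin-like growth factors, was at -1.07 with shHSF1 and 5.91 in the subline, the cytidine deaminase APOBEC3G at -2.06 and 4.15, and the adenylyl cyclase ADCY5 at -2.04 and 2.04. The adhesion molecules L1CAM (1.88 and 5.47) and MCAM (0.39 and 2.53) were higher in both. L1CAM, known for its part in brain colonisation, stood at 37.5 and 34.3 CPM with shNTC and 148.0 and 116.6 CPM with shHSF1. RAB3B (2.21 and -2.17) and the cystathionine lyase CTH (0.97 and -1.72) were higher with shHSF1 and lower in the subline, and RDH10 of retinoid synthesis (-1.0 and -1.96) was lower in both. HSF1 (0.15, adjusted p = 0.531), HSP90AA1 (0.27, adjusted p = 0.546) and HSPH1 (-0.16, adjusted p = 0.575) were not called between the untransduced lines.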

How the data were processed

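RNA-seq of 8 libraries was analysed, 4 of them in the knockdown comparison, with groups taken from sample titles. Whole-number counts for each gene were deposited. They come from featureCounts 1.6.1, run by the authors over exons by gene ID, reverse-stranded, on an Ensembl GRCh37 annotation, per the file headers. The submitters' processing notes also name Trim Galore, HISAT2 and DESeq2, with no version or role. Symbols matched 52273 of 63677 gene IDs, and 15 listed symbols had no match.

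The knockdown and the subline comparison were each fitted on their own 4 libraries in edgeR 4.0.16 (R 4.3.3). The steps were filterByExpr (minimum count 10, minimum total 15), TMM factors, the quasi-likelihood F test with 2 residual degrees of freedom, and Benjamini-Hochberg adjustment over all tested genes with a threshold of 0.05. Standard errors of log2 fold changes were derived from the F statistic. CPM and RPKM use TMM-scaled library sizes. The fit was tested on simulated data. Counting error is all that the intervals, and the limit of 3 counts behind a 0, take in. The replicates of each group differed by more than sampling noise (chi-square per degree of freedom 26.6 for shNTC and 12.0 for shHSF1).

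The members, the 37 gene lists, the 13 symbol families and the naming rule were chosen with earlier results of these data known. Named by rule were every tested member of the heat shock factor, HSP90, HSP70, small heat shock protein and heat-induced lists, and up to 3 called members per direction, by fold, of other lists and families (at least 5 CPM in 1 group, groups not overlapping). The rule also took the 10 called genes with the largest gain and the 10 with the largest loss of RPKM, mitochondrial genome left out. It further took the 12 largest called rises and the 12 largest called falls by fold (at least 50 CPM in 1 group, groups not overlapping). Up to 5 genes per direction class called in both comparisons were added. IL6, TEF, DBP, NR1D1, BMAL1 and DNAJB6 were named after their values were seen, and PRKRA was also named outside the rule. Alternatives were DESeq2 1.42.0, other scaling factors and filters, a replicate block, a fit of all 8 libraries, leaving out the mitochondrial genome, and leaving out each library. Results of some genes and lists are not reported here.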

Additional observations from a re-analysis of the deposited data

How the results depend on the processing

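The HSF1 fall and the lower HSP90AA1 level kept their direction and call in every alternative run. Of 342 named genes 315 were called, 220 of these kept their call in all alternatives, and 0 changed direction. The fit of all 8 libraries changed most: it gave 3873 called genes, 1639 higher and 2234 lower, with 1060 past 1.5-fold, and 89 named genes lost their call. A null of 2-fold left 584 genes. Without 1 library the knockdown calls ranged from 6044 to 6514, and 18 to 32 named genes lost their call. DESeq2 gave 6493 calls, and upper-quartile scaling 4592 higher and 3387 lower. The subline comparison was unstable, with 2147 calls in DESeq2, 3159 with no count filter, and 402 to 9228 when 1 library was left out. The cause was not tested. Depth limits statements on genes near the limit from a count of 0, given with the library totals.

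Replicate numbers are shared between groups but did not pair the samples. Deviations of same-numbered libraries correlated at r = 0.0404 over 11171 genes in the knockdown and -0.0301 over 10665 in the subline comparison. With the replicate block 8015 genes were called and 2 named genes lost their call, HSPB1 among them (adjusted p = 0.068). The block called HSPA8 (adjusted p = 0.00143) and HSPA1B (5.06e-07), each lower in both same-numbered pairs, and 1 rise among splicing factors.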
